A study of Mus musculus with 6 samples.

Results

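The 10 genes described here encode proteins of the extracellular matrix that cells make around themselves: the matricellular proteins Sparc, Postn, Thbs1, Thbs2 and Tnc, the small leucine-rich proteoglycans Dcn, Lum and Bgn, the adhesive glycoprotein Fn1, and the elastic-fibre glycoprotein Emilin1. They were taken by gene symbol from the deposited values, and all 10 were found among 25805 listed genes. Gene expression had been measured by RNA sequencing of mouse kidney after ischaemia-reperfusion injury, in which the blood supply to the kidney is stopped and then restored. The 3 wild-type libraries are compared with 3 libraries whose genotype is given as CXCR2 knockout; both groups received the injury, and uninjured kidney was not analysed here. The age and strain of the mice, the time after injury and the construction of the knockout allele were not given in the sources used here. Nothing in the labels states whether the libraries come from different animals; p-values here measure only the spread between libraries, which may be technical.

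Matricellular proteins are secreted into the matrix but carry little of its mechanical load; they bind collagens, growth factors and cell-surface receptors such as integrins. Small leucine-rich proteoglycans have a core protein of leucine-rich repeats, often with chondroitin, dermatan or keratan sulphate chains, and regulate the assembly of collagen fibrils. Decorin and biglycan also bind TGF-beta, and thrombospondin-1 can activate its latent form. In the injured kidney, fibroblasts, pericytes and other stromal cells are known sources of these proteins, and their accumulation is a feature of renal fibrosis.

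Recovered whole reads ran from 15518083 to 20356601 per library, and the kidney-defining genes tested, 10 of 10, were present in every library. Cxcr2, the chemokine receptor named in the genotype, had normalized counts (reads divided by the library's size factor) of 15.9, 88.8 and 56.9 in the wild type, against 98.0, 36.8 and 56.6 in the second group, always in the order of libraries 1 to 3. It was thus not lower in the second group (log2 fold change 0.43, limma; -0.27 without wild-type library 1), which is called labelled knockout throughout. Whether the measured exons lie in the deleted part is not known. Labelled-knockout library 1 stood apart from the other 5 on the first principal component (48.3% of the variance over 12841 genes, score 86.0 against -27.3 to -4.16). On the second component (27.3% of the variance), labelled-knockout library 3 had the lowest score, -57.3 against -12.8 to 33.6. Labelled-knockout library 1 also held far more RNA of fat cell markers. The 8 markers summed to 40751 normalized counts there and to between 344 and 2677 in the other 5 libraries.

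RefSeq promoter windows (GRCm38.p6, 250 bases upstream of an annotated start) were matched for 6 of the 10 genes. Windows are printed for the 3 genes with the largest wild-type to labelled-knockout ratio that have a window within a few bases of the start of the deposited gene model (Bgn, Postn and Tnc, described below). Each is written 5′ to 3′ on the gene's own strand and ends at the base before the start site. Capitals mark exact matches, on either strand, to a TATA box (TATAAA), a GC box (GGGCGG) or an E-box (CAGCTG).
Bgn (chrX:73483351-73483600): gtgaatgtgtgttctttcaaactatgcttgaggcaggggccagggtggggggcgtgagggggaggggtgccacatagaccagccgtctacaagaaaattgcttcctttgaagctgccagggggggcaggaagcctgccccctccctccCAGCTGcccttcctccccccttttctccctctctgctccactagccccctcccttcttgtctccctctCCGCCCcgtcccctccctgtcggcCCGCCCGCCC
Postn (chr3:54360857-54361106): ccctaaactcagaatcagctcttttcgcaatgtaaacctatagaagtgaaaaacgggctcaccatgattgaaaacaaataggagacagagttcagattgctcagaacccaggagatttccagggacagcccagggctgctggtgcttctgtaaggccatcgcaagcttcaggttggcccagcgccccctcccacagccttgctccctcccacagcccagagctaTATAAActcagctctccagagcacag
Tnc (chr4:64047016-64047265): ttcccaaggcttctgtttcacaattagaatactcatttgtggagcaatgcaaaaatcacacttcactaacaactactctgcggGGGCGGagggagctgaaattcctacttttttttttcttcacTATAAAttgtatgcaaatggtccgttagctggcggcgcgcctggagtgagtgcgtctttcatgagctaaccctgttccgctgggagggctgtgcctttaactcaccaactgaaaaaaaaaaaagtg
The Bgn window, on the plus strand of the X chromosome, is GC-rich (64.4%, against a median of 52.4% over 32851 windows of 27025 genes). It holds an E-box and overlapping GC boxes close to the start. The Postn window, on the plus strand, has a TATA box 26 bases before the start and a GC content of 52.0%. The Tnc window, on the minus strand, has the lowest GC content of the 3 (44.8%), with TATA and GC boxes more than 100 bases from the annotated start.

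Across all 6 matched genes, TATAAA was present for 3 (Postn, Thbs2 and Tnc) and in 12.4% of all windows. The E-box CAGCTG was present for 3 (Bgn, Emilin1 and Sparc; 13.0% of all windows), and GGGCGG for 2 (Bgn and Tnc; 32.7%). The short SMAD half-site CAGAC, part of the DNA motif bound by the transcription factors downstream of TGF-beta, was present for 5 genes in at least 1 window and in 42.2% of all windows. No match was found in these windows to the AP-1 motif TGANTCA (6.75% of all windows), the TEAD motif CATTCC (12.6%), the SMAD palindrome GTCTAGAC (0.167%) or the CArG box bound by SRF (1.47%). Postn and Tnc have more than 1 window, so the shares per gene and per window are not on the same footing. These matches describe letters and do not show binding.

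Sparc, Bgn, Emilin1, Tnc and Postn lay lower in each labelled-knockout library than in any wild-type library, by 2.24-fold to 3.36-fold between group means. Fn1, Thbs1 and Thbs2 had lower means in the labelled knockout, with overlapping groups. Dcn and Lum had higher means there, set by labelled-knockout library 1. None of the 10 passed the test fitted over all genes (limma, Benjamini-Hochberg adjusted p under 0.05), which called 1 gene of 21721 (0.0046%). The 5 genes without overlap compare with a background of 9.43% of tested genes lower in this way. These 5 also had an unadjusted limma p under 0.05, where the background in that direction was 6.14% (10.1% in either). Their log2 fold changes were -1 or lower, as were 8.57% over all tested genes. In bulk tissue, fewer cells of a type and less RNA per cell cannot be told apart, and this holds for every level given here.

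A different test on the recovered whole reads gave calls for the same 5 genes. DESeq2's Wald test put Sparc, Bgn, Emilin1, Tnc and Postn past an adjusted p of 0.05, all lower, where it called 1.2% of 17223 genes lower and 1.8% in either direction. The quasi-likelihood test of edgeR called 0 of the 10, with a background of 0.00628%; the same 5 had an unadjusted edgeR p under 0.05, against 6.28% of its genes in that direction. All 10 log2 fold changes from limma were negative, as were 50.1% over all tested genes. DESeq2 and edgeR each gave 8 negative values, with Dcn and Lum above 0. The limma median of the 10 genes was -0.85, against -0.0010 over all tested genes. It stood at -1.37 without labelled-knockout library 1, at -1.40 without wild-type library 3 and at -0.58 without labelled-knockout library 3. Without labelled-knockout library 1, 7 of the 10 had an unadjusted limma p under 0.05, all lower, against a background of 7.91%.

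**Figure D1:**
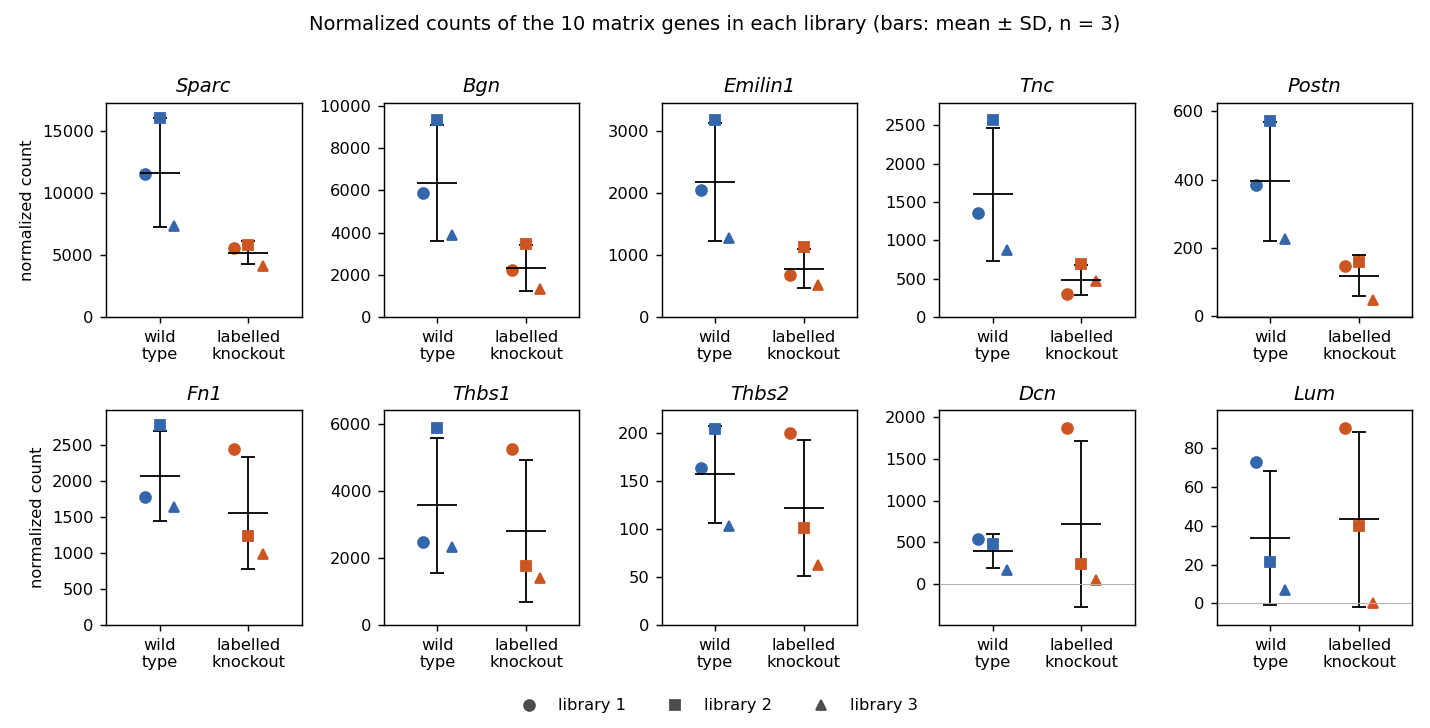
Normalized counts (vertical axes, linear, one scale per gene) of the 10 genes in the 3 wild-type and 3 labelled-knockout libraries; points are libraries, bars the mean ± SD. Sparc, Bgn, Emilin1, Tnc and Postn show no overlap between the groups, while labelled-knockout library 1 is the highest point for Dcn and Lum.

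Sparc (osteonectin), a collagen- and calcium-binding glycoprotein, is encoded on the minus strand of chromosome 11 (mm10, 55394500 to 55423183). Normalized counts over its exons were 11528, 16092 and 7340 in the wild type and 5605, 5872 and 4151 in the labelled knockout. The 3 labelled-knockout libraries lay closer to each other than the wild-type ones did, and all 3 were below the lowest wild-type library. The means were 11654 ± 4377 and 5209 ± 926 (SD, n = 3 each), a log2 fold change of -1.11 (SE 0.29, 95% interval -1.76 to -0.45; limma adjusted p = 0.380, DESeq2 adjusted p = 0.0227). Leaving out any 1 library kept it between -1.40 and -0.84.

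Bgn (biglycan), a small proteoglycan of bone, vessel wall and kidney that can also signal through Toll-like receptors, lies on the plus strand of the X chromosome (73483602 to 73495933). It had 5865, 9327 and 3903 normalized counts in the wild type and 2227, 3467 and 1326 in the labelled knockout. The gap between the groups was narrow, from 3467 in labelled-knockout library 2 to 3903 in wild-type library 3. Group means were 6365 ± 2746 and 2340 ± 1075 (SD, n = 3 each). This is a log2 fold change of -1.46 (SE 0.42, interval -2.44 to -0.49; limma adjusted p = 0.391, DESeq2 adjusted p = 0.0300).

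Emilin1 anchors elastic fibres and binds integrins and the precursor of TGF-beta; its gene is on the plus strand of chromosome 5 (30913402 to 30921277). Its values were 2064, 3189 and 1289 normalized counts in the wild type and 686, 1140 and 530 in the labelled knockout. As for Bgn, the highest labelled-knockout library was the second and the lowest wild-type library the third. The means of 2181 ± 956 and 785 ± 317 (SD, n = 3 each) gave a log2 fold change of -1.45 (SE 0.38, interval -2.34 to -0.56; limma adjusted p = 0.383, DESeq2 adjusted p = 0.0189).

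Tnc (tenascin C), a large glycoprotein of healing wounds that modulates cell adhesion, is encoded on the minus strand of chromosome 4 (63959785 to 64047015). Counts of 1363, 2561 and 871 in the wild type stood against 303, 691 and 470 in the labelled knockout. Tnc was the only one of the 10 with its lowest value in labelled-knockout library 1 rather than 3. From 1599 ± 869 to 488 ± 195 (SD, n = 3 each), the log2 fold change was -1.65 (SE 0.44, interval -2.67 to -0.62; limma adjusted p = 0.390, DESeq2 adjusted p = 0.0108). Its exons overlap those of 8030451A03Rik on the opposite strand, which had a mean of 3.7 normalized counts. The use of strand in counting is not known, so reads of the pair cannot be told apart.

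Postn (periostin), which crosslinks collagen and binds integrins, lies on the plus strand of chromosome 3 (54361109 to 54391037). It had 384, 573 and 226 normalized counts in the wild type and 146, 159 and 47.3 in the labelled knockout. Labelled-knockout library 3 was lower than the other 2 of its group by a wide margin. Postn had the largest ratio of group means among the 10 genes, 394 ± 173 against 117 ± 61.0 (SD, n = 3 each), a 3.36-fold difference. On the log2 scale the change was -1.82 (SE 0.52, interval -3.02 to -0.63; limma adjusted p = 0.391, DESeq2 adjusted p = 0.0251).

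**Figure D2:**
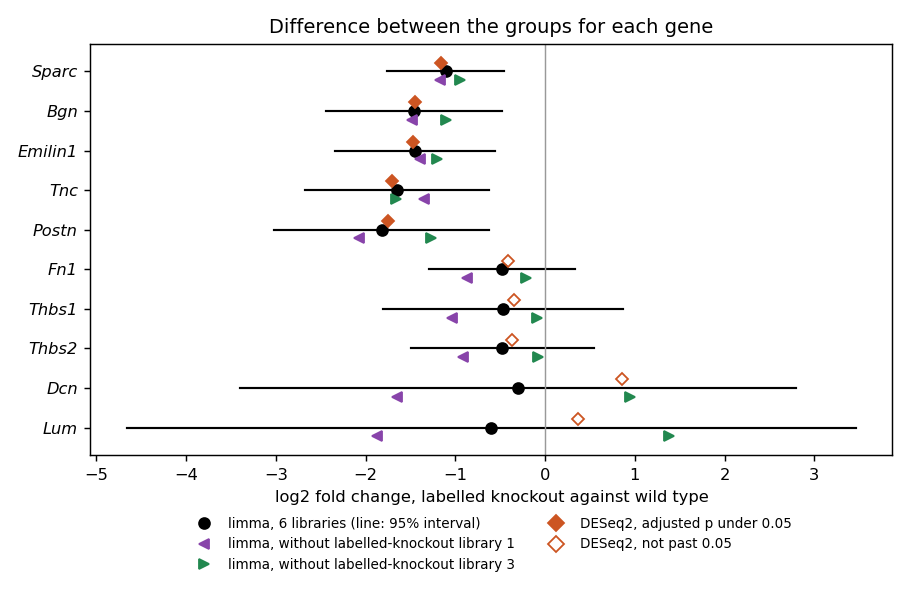
Log2 fold change of each gene, labelled knockout against wild type, from limma on log2(normalized count + 1); black points with lines are the estimates from all 6 libraries with 95% intervals, triangles the estimates without labelled-knockout library 1 or 3, and diamonds DESeq2's (filled where its adjusted p is under 0.05). The limma intervals of Sparc, Bgn, Emilin1, Tnc and Postn lie below 0, and those of Dcn and Lum span from -3.39 to 2.80 and from -4.66 to 3.46.

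Fn1 (fibronectin), the adhesive glycoprotein on which cells spread through integrins, is on the minus strand of chromosome 1 (71585520 to 71653200). Normalized counts were 1785, 2782 and 1639 in the wild type and 2448, 1235 and 987 in the labelled knockout. Labelled-knockout library 1 lay above 2 of the 3 wild-type libraries and the other 2 below all of them. Limma gave a log2 fold change of -0.48 (SE 0.35; 95% interval from -1.30 to 0.33; adjusted p = 0.664). Leaving out labelled-knockout library 1 gave -0.86, and leaving out labelled-knockout library 3 gave -0.21. The exons overlap those of the antisense gene Apol7d in GENCODE M21, which is not among the listed genes.

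Thbs1 (thrombospondin-1), released by platelets and made by many injured cells, binds CD36, CD47 and latent TGF-beta; it lies on the plus strand of chromosome 2 (118111876 to 118127133). It had 2475, 5874 and 2337 normalized counts in the wild type and 5230, 1768 and 1400 in the labelled knockout. Each group held 1 library at more than double the level of its other 2, wild-type library 2 and labelled-knockout library 1. The means of 3562 ± 2004 and 2799 ± 2113 (SD, n = 3 each) differed by less than the spread within either group. The log2 fold change of -0.46 (SE 0.56, interval -1.80 to 0.87; limma adjusted p = 0.802) moved to -1.04 without labelled-knockout library 1 and to -0.035 without wild-type library 2. A noncoding gene on the opposite strand, Gm29233, shares exon sequence with Thbs1 and is not among the listed genes.

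Thbs2 (thrombospondin-2), a related glycoprotein that restrains vessel growth, is encoded on the minus strand of chromosome 17 (14665500 to 14694235). It had 164, 204 and 104 normalized counts in the wild type and 200, 102 and 62.8 in the labelled knockout. The order of the labelled-knockout libraries was that of Fn1 and Thbs1, with library 1 inside the wild-type range and libraries 2 and 3 below it. With limma the log2 fold change was -0.47 (SE 0.45; 95% interval from -1.50 to 0.55; adjusted p = 0.737). The value was -0.91 if labelled-knockout library 1 is left out and -0.084 without labelled-knockout library 3.

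For Fn1, Thbs1 and Thbs2, marker levels of other cell types were also high in labelled-knockout library 1. The 10 neutrophil markers summed to 4531 normalized counts there and to between 426 and 1484 in the other 5 libraries. The 6 platelet markers summed to 497 there and to between 127 and 402 elsewhere; Pf4 alone, the platelet chemokine, was at 86.9 in that library against 94.5, 212 and 139 in the wild type. The part of these cells in the values of the 3 genes was not tested.

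Dcn (decorin), which coats collagen fibrils, is on the plus strand of chromosome 10 (97479609 to 97518143). It had 544, 486 and 164 normalized counts in the wild type and 1869, 244 and 50.4 in the labelled knockout. The labelled knockout held both the highest and the lowest of the 6 libraries. Its mean of 721 ± 999 against 398 ± 205 (SD, n = 3 each) came from library 1 alone. The log2 fold change was -0.30 (SE 1.28, interval -3.39 to 2.80; limma adjusted p = 0.954). Its sign turned with the method and with the libraries: it was 0.86 by DESeq2 and 0.85 by edgeR, -1.65 without labelled-knockout library 1, 0.94 without labelled-knockout library 3 and 0.017 without wild-type library 1.

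Lum (lumican), a keratan sulphate proteoglycan of collagen fibrils, lies next to Dcn on the same strand of chromosome 10 (97565128 to 97572703). It rested on few reads, at 72.7, 21.3 and 6.83 normalized counts in the wild type and 90.2, 39.7 and 0 in the labelled knockout. The recovered reads behind these values numbered 87, 23 and 6 in the wild type and 81, 41 and 0 in the labelled knockout. The 0 in labelled-knockout library 3 allows up to 3.09 normalized counts (3 reads, counting error only). Limma gave -0.60 on the log2 scale (SE 1.72; 95% interval from -4.66 to 3.46; adjusted p = 0.926), DESeq2 0.36 and edgeR 0.34. It ranged from -1.88 to 1.38 with single libraries left out, above 0 without labelled-knockout library 3 (1.38) and without wild-type library 1 (0.23).

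Within each group, the summed fat cell markers had the same order of libraries as Dcn. The 8 markers summed to 2677, 2101 and 929 normalized counts in the wild type and to 40751, 2214 and 344 in the labelled knockout. Adipoq, the fat cell hormone adiponectin, had 2174, 96.8 and 0 in the labelled knockout and 97.8, 0 and 0 in the wild type. In wild-type libraries 2 and 3 and labelled-knockout library 3, 2, 3 and 3 of the 8 markers were at 0. Their part in the Dcn and Lum values was not tested.

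**Figure D3:**
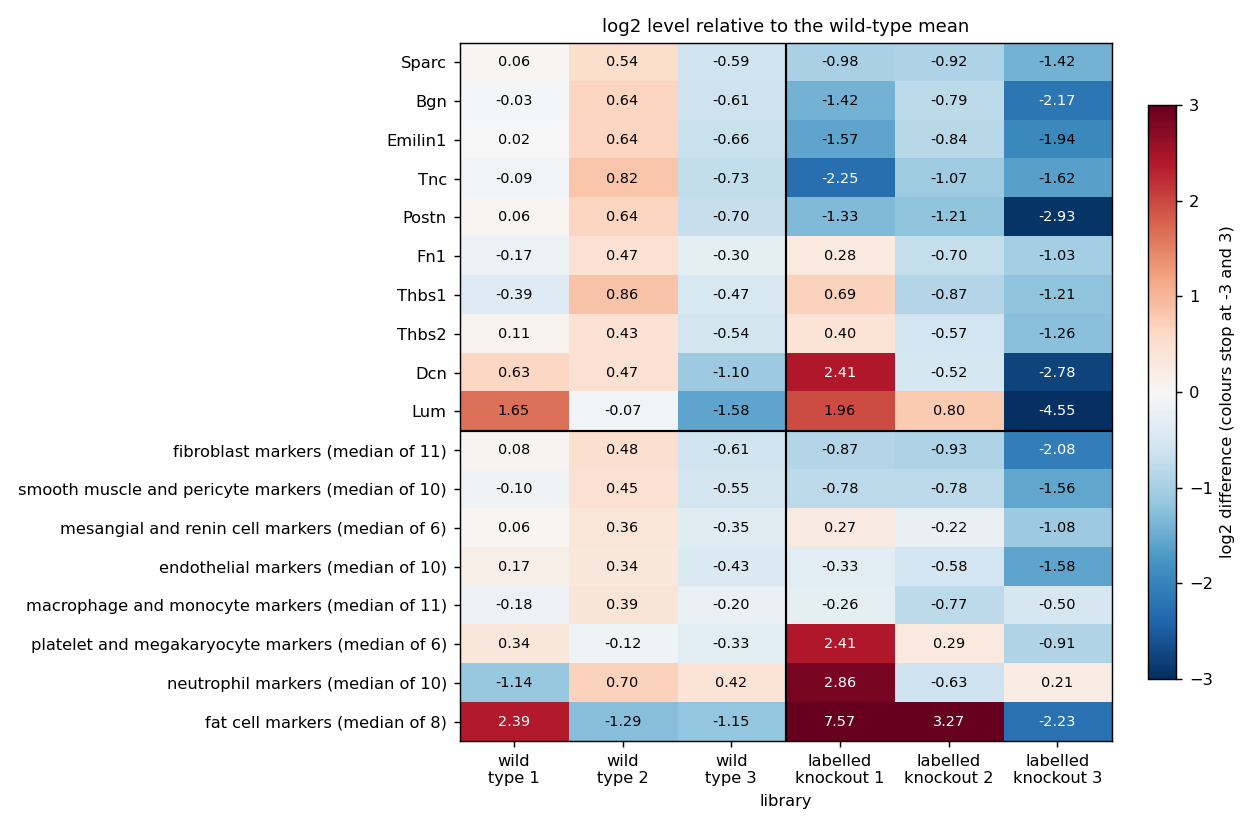
Heat map of the log2 level in each library (columns) relative to the wild-type mean, for the 10 genes (upper rows) and the medians of marker lists (lower rows); printed values give the log2 difference and colours stop at -3 and 3. Labelled-knockout library 3 is negative for all 10 genes, and the fat cell row reaches 7.57 in labelled-knockout library 1.

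The libraries did not stand in one order for all 10 genes. Wild-type library 2 was the highest of all 6 for 8 of them (library 1 was the highest wild-type library for Dcn and Lum), and wild-type library 3 was the lowest of its group for all 10. Labelled-knockout library 3 was below every wild-type library for all 10 and the lowest of the 6 for 9. In labelled-knockout library 2, 8 genes were below every wild-type library. Labelled-knockout library 1 was divided: 5 genes were below every wild-type library and 5 above the wild-type mean (Fn1, Thbs1, Thbs2, Dcn and Lum).

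As a share of all recovered reads, the 10 genes took 0.154%, 0.249% and 0.101% in the wild type and 0.097%, 0.087% and 0.049% in the labelled knockout. Sparc alone supplied 43.9%, 39.1% and 41.1% of those reads in the wild type and 29.8%, 39.9% and 46.0% in the labelled knockout. The combined share was thus lower in each labelled-knockout library than in any wild-type library, by a small margin between wild-type library 3 and labelled-knockout library 1. The summed normalized counts of the 10 genes overlapped, however, at 26245, 41110 and 17880 in the wild type and 18804, 14717 and 9024 in the labelled knockout.

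Unlike the summed normalized counts of the 10 genes, those of the fibroblast markers did not overlap between the groups. On the log2 scale relative to the wild-type mean, the median of the 10 genes was 0.04, 0.59 and -0.64 in the wild type, then -0.35, -0.81 and -1.78 in the labelled knockout. The median of 11 fibroblast markers was 0.08, 0.48 and -0.61, then -0.87, -0.93 and -2.08. The 10 genes thus had labelled-knockout library 1 above wild-type library 3, and the fibroblast markers had it below. The markers summed to 23767, 27443 and 14993 normalized counts in the wild type and 6421, 12753 and 5811 in the labelled knockout, with library 2 the highest of the latter and no marker at 0 in any library. Of the 11, 9 had a negative log2 fold change. An unadjusted limma p under 0.05 was found for 6 of these 9, against 6.14% of all tested genes in the lower direction. The other 2 had a positive log2 fold change. These 2 were Nt5e, an ecto-enzyme that makes adenosine, at 969 ± 266 in the wild type and 1512 ± 361 in the labelled knockout (SD, n = 3 each; log2 fold change 0.65, limma adjusted p = 0.441), and the noncoding RNA Meg3 (0.27). Col1a2 and Col3a1, chains of the fibrillar collagens, had means of 5675 ± 2088 and 6974 ± 2769.6 in the wild type and 1672 ± 1019.7 and 1882 ± 1198 in the labelled knockout (SD, n = 3 each). Their log2 fold changes were -1.86 and -1.97 (limma adjusted p = 0.381 and 0.383, DESeq2 adjusted p = 0.0096 and 0.0070).

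Smooth muscle and pericyte markers had a median log2 fold change of -0.81 (-0.52 without labelled-knockout library 3), with 9 of 10 negative. The 10 markers summed to between 5778 and 13939 normalized counts in the wild type and between 2405 and 4596 in the labelled knockout, none at 0; the intermediate filament gene Des had a log2 fold change of -1.76 (limma adjusted p = 0.314, DESeq2 adjusted p = 0.000387). Endothelial markers summed to between 12764 and 21238 and between 5418 and 11830, also with none at 0; their median was -0.85 (-0.46 without labelled-knockout library 3). Macrophage and monocyte markers overlapped in their sums, at 4609 to 6672 against 3493 to 6774. Of these 11 markers, 8 had a negative log2 fold change and 3 a positive one. Of the 8, 4 had an unadjusted limma p under 0.05, against 6.14% of all tested genes in the lower direction. The median was -0.50 (-0.81 without labelled-knockout library 1 and -0.29 without wild-type library 2). Proximal tubule and podocyte markers had medians in the other direction, but their sums overlapped. These were 94189 to 177898 against 102128 to 221555 for proximal tubule markers and 8711 to 11054 against 10150 to 12252 for podocyte markers. The kidney-defining genes had a median log2 fold change of 0.10 (-0.20 without labelled-knockout library 1). Of 10 proximal tubule markers, 8 had a positive log2 fold change, and the median of the 10 was 0.61 (0.19 if labelled-knockout library 1 is left out). An unadjusted limma p under 0.05 was found for 3 of the 8, against 3.94% of all tested genes in the higher direction. Of 7 podocyte markers, 6 were positive, 2 with an unadjusted limma p under 0.05 (the same background of 3.94%), and the median was 0.27. The part of any of these cells in the levels of the 10 genes was not tested.

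Pdgfrb, the PDGF receptor of fibroblasts, pericytes and mesangial cells, had the smallest p of the fibroblast list and was taken as a reference after its values had been seen. Its means were 2351 ± 782 and 823 ± 270 normalized counts (SD, n = 3 each; log2 fold change -1.51, limma adjusted p = 0.369, DESeq2 adjusted p = 0.0032). Per kilobase of exon, the ratio of Emilin1 to Pdgfrb was 0.989, 1.12 and 0.901 in the wild type and 0.917, 1.16 and 1.07 in the labelled knockout, a 1.29-fold range over all 6 libraries. That of Bgn to Pdgfrb was 2.28, 2.66 and 2.21, then 2.41, 2.86 and 2.17, a 1.32-fold range. For both genes the groups overlapped in this ratio although they did not in counts. Their log2 fold changes, -1.45 for Emilin1 and -1.46 for Bgn, were close to that of Pdgfrb. The overlap thus follows from the choice of reference.

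The ratio of Sparc to Pdgfrb was higher in the labelled knockout, at 7.20, 7.38 and 6.68 against 9.77, 7.80 and 10.9, with no overlap. Postn overlapped, at 0.104, 0.114 and 0.090 against 0.111, 0.092 and 0.054, with labelled-knockout library 3 lowest. Tnc also overlapped, at 0.415, 0.573 and 0.387 against 0.257, 0.447 and 0.604. Fn1 and Thbs2 stood higher against Pdgfrb in every labelled-knockout library. For Fn1 the ratio was 0.362, 0.414 and 0.484 in the wild type and 1.38, 0.532 and 0.843 in the labelled knockout. For Thbs2 it was 0.055, 0.051 and 0.051, then 0.189, 0.073 and 0.090. Thbs1 overlapped in this ratio, at 0.965, 1.68 and 1.33 against 5.69, 1.46 and 2.30, with labelled-knockout library 1 highest. Of the 9 genes compared, Dcn had the widest range, 24.5-fold, at 0.221, 0.145 and 0.097 against 2.11, 0.210 and 0.086. Sparc, Fn1 and Thbs2 had less negative log2 fold changes than Pdgfrb. Their higher ratios thus also follow from the choice of reference. These ratios describe unequal levels in the same library and carry no test.

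**Figure D4:**
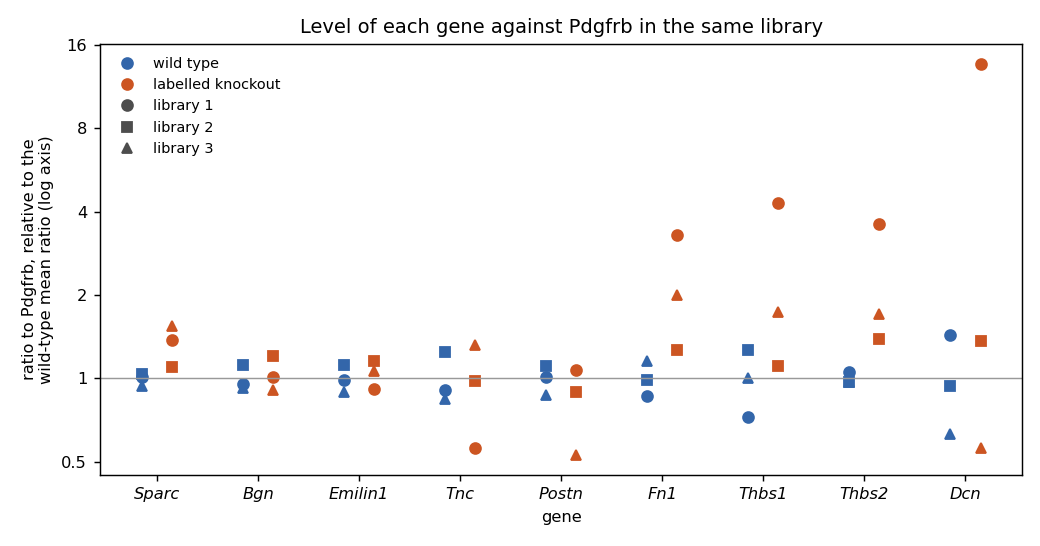
Ratio of each gene's normalized count per kilobase of exon to that of Pdgfrb in the same library, divided by the gene's mean ratio in the wild type (log axis), with the 6 libraries as points and Lum left out. The points of Emilin1 and Bgn span 1.29-fold and 1.32-fold, and those of Dcn 24.5-fold. Pdgfrb was chosen as the reference after its values had been seen.

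Levels between genes can be compared only per length, here as normalized counts per kilobase of the deposited exonic length. Sparc was the most abundant of the 10 in all 6 libraries, with a mean of 3076 per kilobase in the wild type. Bgn followed at 1044, Thbs1 at 587, Emilin1 at 442, Tnc at 206, Fn1 at 177, Dcn at 68.2, Postn at 45.3, Thbs2 at 22.5 and Lum at 13.7. Of the neighbours in this order, Sparc and Bgn did not overlap over the 3 libraries, nor did Fn1 and Dcn; every other neighbouring pair overlapped.

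In the labelled knockout the order was Sparc at 1375 per kilobase, then Thbs1 (461), Bgn (384), Emilin1 (159), Fn1 (133), Dcn (124), Tnc (62.8), Lum (17.7), Thbs2 (17.4) and Postn (13.5). The neighbours that did not overlap were Sparc and Thbs1, and Tnc and Lum. With the length of the longest annotated transcript in place of the exon union, Sparc, Bgn, Fn1 and Postn stood at 5067, 2388, 249 and 75.5 per kilobase in the wild type, and Fn1 came before Tnc. In the labelled knockout that length put Bgn (878) before Thbs1 (479), and Postn (22.5) before Thbs2 and Lum.

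**Figure D5:**
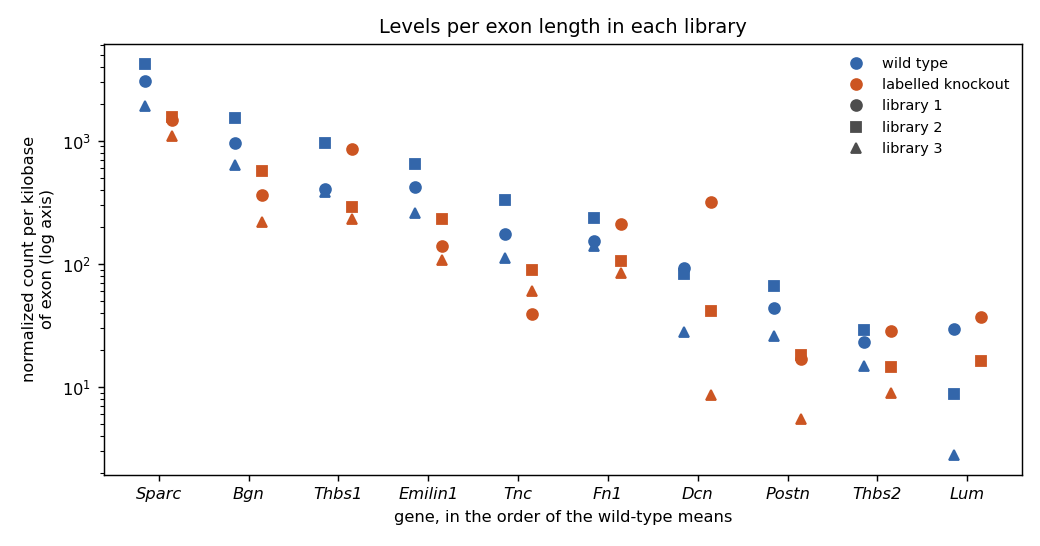
Normalized count per kilobase of exon (log axis) of each gene in each of the 6 libraries, ordered by the wild-type mean. Sparc is the highest gene in every library; Lum, listed at 0 in labelled-knockout library 3, has no point there.

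Of the wider gene family and pathway, 100 genes in 8 lists were examined. Of these, 98 are listed and 97 were tested. Limma called 0 of the 97; 14 had an unadjusted p under 0.05 in the lower direction and 1 in the higher, against backgrounds of 6.14% and 3.94%. DESeq2 put 5 past its threshold, all lower (Fstl1, Ccn4, Fbn1, Loxl2 and Itga9). Over 17223 genes it called 1.2% lower and 1.8% in either direction. The median log2 fold change of the 97 was -0.35.

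The elastic fibre and EMILIN-family list, to which Emilin1 is related, had a median log2 fold change of -0.90, against -0.32 without labelled-knockout library 3. Among its 21 tested genes, 19 had a negative value. Of these, 7 had an unadjusted limma p under 0.05, against 6.14% of all tested genes in the lower direction. Without wild-type library 2, the number of such genes in the list was 2. Fbn1, the fibrillin of microfibrils, had 911, 1209 and 413 normalized counts in the wild type and 315, 346 and 197 in the labelled knockout (log2 fold change -1.47, limma adjusted p = 0.391, DESeq2 adjusted p = 0.0143). The crosslinking enzyme Loxl2 had a log2 fold change of -1.40 (limma adjusted p = 0.390, DESeq2 adjusted p = 0.0140). Efemp2 (fibulin-4), needed for elastin crosslinking, had one of -1.07 (limma adjusted p = 0.414). The groups did not overlap for these 3 genes, as for 9.43% of all tested genes in the lower direction.

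Relatives of the 10 genes by sequence gave mixed values. In the SPARC-related and periostin-related list, with 8 genes tested and a median of -0.19 (-0.42 without labelled-knockout library 1, -0.03 without labelled-knockout library 3 and 0.03 without wild-type library 2), Fstl1 stood lowest in p. This secreted glycoprotein had means of 2051 ± 949 and 652 ± 141 (SD, n = 3 each; log2 fold change -1.57, limma adjusted p = 0.369, DESeq2 adjusted p = 0.0018). Smoc2 and Spock2 had log2 fold changes of -1.39 and -0.89 with overlapping groups; that of Smoc2 was -2.20 without labelled-knockout library 1 and -0.63 without labelled-knockout library 3. The other thrombospondins and tenascins, 5 tested, had a median of 0.57 (0.085 without labelled-knockout library 1) and no gene with an unadjusted p under 0.05. Thbs3 lay higher in every labelled-knockout library (95.9 ± 12.9 against 64.7 ± 12.3, log2 fold change 0.57, limma adjusted p = 0.563). The share of all genes lying higher in this way was not computed. Tnxb had a log2 fold change of -0.94 and Comp one of 1.25, both with overlap. Without labelled-knockout library 1, Comp was at 0.22 and Tnxb at -1.41, and without labelled-knockout library 3 Tnxb was at -0.24.

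The other small leucine-rich proteoglycans, 11 tested, had a median of -0.59 and no gene with an unadjusted p under 0.05. Without labelled-knockout library 1 the median was -1.25 and 5 of them had one in the lower direction, against 7.91% of all genes tested in that setting. Without labelled-knockout library 3 the median was -0.13 and 0 had one in the lower direction. The higher direction was not counted in these 2 settings. Prelp, a heparin-binding member, had 246, 443 and 209 normalized counts in the wild type and 373, 153 and 26.8 in the labelled knockout, where its libraries stood in the order seen for Dcn. Its log2 fold change of -1.28 was -2.12 without labelled-knockout library 1 and -0.25 without labelled-knockout library 3. Aspn and Epyc were near the limit of detection, at no more than 15.9 and 6.68 in any library.

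Of the 7 CCN genes and osteopontin, which are also matricellular, 6 had a negative log2 fold change and the median was -0.85. Ccn4 had a log2 fold change of -1.27 (limma adjusted p = 0.391, DESeq2 adjusted p = 0.0479) and Ccn3 one of -1.26 at under 16 normalized counts. Ccn2 (connective tissue growth factor), a target of TGF-beta and YAP, had 2005, 5986 and 2295 in the wild type and 2235, 1390.3 and 1933 in the labelled knockout, with overlap (log2 fold change -0.73, limma adjusted p = 0.581).

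Among 15 receptors for these proteins, 3 had an unadjusted p under 0.05 in the lower direction and 1 in the higher, with a median of -0.25 (-0.43 without labelled-knockout library 1 and -0.12 without labelled-knockout library 3). Itga9, the integrin subunit that binds tenascin C, had 601, 875 and 312 normalized counts in the wild type and 262, 249 and 131 in the labelled knockout (log2 fold change -1.42, limma adjusted p = 0.391, DESeq2 adjusted p = 0.0299). The fibronectin receptor subunit Itga5 had a log2 fold change of -1.08 (limma adjusted p = 0.391, DESeq2 adjusted p = 0.0789). Stab1, a scavenger receptor that takes up Sparc, had one of -0.82 (limma adjusted p = 0.467).

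Of the 11 TGF-beta ligands, receptors and Smads, 2 had an unadjusted limma p under 0.05, both lower, against a background of 6.14%. The median was 0.04 (-0.14 if labelled-knockout library 1 is left out and 0.22 without labelled-knockout library 3). Tgfbr1, Tgfb3 and Tgfb1 had log2 fold changes of -0.62, -1.37 and -0.40 (limma adjusted p = 0.434, 0.474 and 0.498). The 19 enzymes that build chondroitin and dermatan sulphate chains, which Dcn and Bgn carry, had a median of -0.14 (-0.06 without labelled-knockout library 3) and no unadjusted p under 0.05. Chst14, which sulphates dermatan, had a log2 fold change of -0.82, and Chsy1 and B4galt7 had 0.41 and 0.29, each without overlap between groups (limma adjusted p = 0.538, 0.505 and 0.621). Of all tested genes, 9.43% were lower without overlap. The share that were higher without overlap was not computed.

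Profiles over the 6 libraries were compared by the root-mean-square difference of log2 levels, each gene centred on its own mean. Over the same libraries, Bgn and Emilin1 differed by 0.116, the smallest difference between any 2 of the 10 genes. Sparc, Bgn, Emilin1, Tnc and Postn differed among themselves by 0.116 to 0.659 and Fn1, Thbs1 and Thbs2 by 0.196 to 0.321. Between these sets the differences ran from 0.477 to 1.08, and Dcn and Lum differed from the other 8 by 1.07 to 2.34. The sets were drawn from the pattern of these genes over the same libraries. Likeness within a set is therefore no separate result. The genes share the same 6 libraries, so these values are descriptions and were not tested.

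Among 12150 protein-coding genes with a mean of at least 50 normalized counts, the nearest profiles to Bgn were Cd248 (0.092) and Mrc2 (0.141). Those nearest to Emilin1 were Col15a1 (0.127) and Cnn2 (0.130), to Sparc Ecscr (0.127) and Pdlim1 (0.131), to Postn Adamts2 (0.196) and Pdgfra (0.199), and to Tnc Hoxa11 (0.147) and Adra1b (0.174). Fn1 was nearest to Tubb6 (0.050) and Adgrf5 (0.088), Thbs1 to Hecw2 (0.143) and Cyyr1 (0.172), and Thbs2 to Rnf144a (0.082) and BC005561 (0.099). Dcn was nearest to Aoc3 (0.268) and Scn7a (0.471). No gene came as close to Lum, where Tusc5 (0.815) and Aqp4 (0.928) were nearest.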

How the data were processed

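RNA-seq of 6 mouse kidney libraries was grouped by the genotype in the labels, with replicate numbers from the titles. The authors deposited a normalized signal, 1 value per gene and library; the values show that it is the read count over a library-wide size factor (0.879 to 1.20). In each library 100% of values were whole multiples of 1 step within 0.001, so whole reads were recovered. The build was mm10, per the submitters' processing notes; aligner, counting program and strand use were not given in the sources used here. Exon lengths are those in the deposited files.

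The main test was limma 3.58.1 (trend, robust) on log2(normalized count + 1) over the 21721 genes whose mean was 1 or more, in R 4.3.3, adjusted by Benjamini-Hochberg over all of them. This scale understates the fold changes of low genes. On recovered reads, edgeR 4.0.16 (TMM, 15915 genes) called 1 gene and DESeq2 1.42.0 (17223 with an adjusted p) called 310. The tests were tried on simulated data first. Other pseudocounts, filters, scaling, a replicate block and leaving out each library were also run. With 3 libraries a group, an exact permutation test of 1 gene cannot go below 0.1.

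The genes and lists were chosen with earlier results of these data known. Named in the text are the 10 genes, Cxcr2, up to 3 genes of smallest p per list (not all are printed) and the 2 nearest profiles per gene. Pdgfrb and Itga8 each stand in 2 lists, and 6 list genes were matched by an older symbol. In GENCODE M21, 50-base runs shared with other genes made up at most 2.51% of each gene's transcripts (Fn1).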

Additional observations from a re-analysis of the deposited data

How the results depend on the processing

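Of the 10 genes, 8 kept the sign of their log2 fold change under every alternative. Dcn and Lum did not. Dcn was at -0.30, at 0.85 with edgeR and 0.86 with DESeq2, and from -1.65 to 0.94 with single libraries left out. Lum was at -0.60, at 0.34 with edgeR, 0.36 with DESeq2 and 0.065 with a pseudocount of 10, and from -1.88 to 1.38 with single libraries left out. Cxcr2 was at -0.27 without wild-type library 1. The causes were not tested. The median of the 10 genes ran from -1.40 to -0.58 with single libraries left out and was -1.28 with a pseudocount of 0.1.

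Genes past the threshold numbered 1 over all genes. There were 310 with DESeq2, 4 with TMM scaling, 2 with a pseudocount of 10, 5 with no filter on low values, 0 without trend and robust options (2189 genes had an unadjusted p under 0.05 in the main test), and 1 to 6 with single libraries left out (6 without labelled-knockout library 1, 3 without labelled-knockout library 3). Of the 10 genes, 0 passed with limma, also with any single library left out, but 2 passed with a replicate block. With DESeq2 5 passed, and DESeq2 was not run with libraries left out. Of the 97 pathway genes, 0 passed with limma and 5 with DESeq2.

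Whether the replicate numbers pair the libraries is not known. The correlations of deviations between same-numbered libraries were 0.07, -0.15 and 0.12, and not every library correlated best with its own number. The deviations were centred within groups of 3 libraries, so these correlations cannot decide the question. A replicate block gave 16 calls over all genes and 2 of the 10 (Bgn, adjusted p = 0.0410, and Emilin1, 0.0481, by limma). Of 24 named pathway genes, 24 kept their sign under every alternative. They were named for the smallest p of their lists in the same data, so their stable signs are no separate result. Depth limits Lum most, with at most 87 reads in a library.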

Other observations

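Ratios between members, per kilobase of exon, varied more for some pairs than others. Tnc to Postn was 3.98, 5.01 and 4.31 in the wild type and 2.32, 4.87 and 11.1 in the labelled knockout (libraries 1 to 3 in each), so labelled-knockout libraries 1 and 3 stood on opposite sides of the wild-type range. Thbs1 to Thbs2 stayed between 17.4 and 33.1 over all 6 libraries. Sparc to Bgn was 3.16, 2.78 and 3.03 in the wild type and 4.05, 2.73 and 5.04 in the labelled knockout. Sparc to Fn1 was 19.9, 17.8 and 13.8 in the wild type and 7.06, 14.7 and 13.0 in the labelled knockout. Bgn to Dcn, 2 proteoglycans with the same kind of sugar chain, was 10.3, 18.4 and 22.8 in the wild type and 1.14, 13.6 and 25.2 in the labelled knockout. These ratios were not tested.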
